A study of Mus musculus with 12 samples.

Results

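The clustered protocadherin genes of the mouse are 3 neighbouring groups on chromosome 18, named alpha, beta and gamma. All 58 of them were taken by their symbol, out of 27095 features that were counted in every library. They comprised 12 alpha variable genes (Pcdha1 to Pcdha12), 22 beta genes (Pcdhb1 to Pcdhb22), 19 gamma variable genes (12 of type A and 7 of type B) and 5 C-type genes (Pcdhac1, Pcdhac2, Pcdhgc3, Pcdhgc4 and Pcdhgc5). RefSeq listed 57 as protein coding and 1, Pcdhgb8, as a transcribed pseudogene. In GRCm38 (mm10) the alpha cluster lay at chr18:36930285-37188897, the beta cluster at chr18:37264998-37521419 and the gamma cluster at chr18:37661775-37841873.

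These genes encode cell-surface adhesion proteins that bind copies of themselves on other cells, and the mixture that a neuron makes gives it an identity by which its own branches can be told from those of its neighbours. Each alpha and gamma variable gene is a single large exon with its own promoter that is spliced to constant exons shared by the whole cluster, whereas each beta gene is a single exon. A neuron picks a few variable promoters more or less at random, by looping between promoter and enhancer that involves CTCF and cohesin, while C-type promoters are used more uniformly across cells. In mice, Pcdhac2 is required for the even spacing of serotonergic axons and Pcdhgc4 for the survival of neurons.

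Acetylation of histone H3 at lysine 14 (H3K14ac) was mapped with ChIP-seq, in which chromatin is pulled down with an antibody to the modified histone and its DNA is sequenced. The mark is largely made by HBO1, an acetyltransferase encoded by Kat7. Neural stem and progenitor cells came from the cortex and ganglionic eminences of mouse embryos at E14.5. Differentiating cells had been dissociated and grown on laminin in cortical neuron medium; proliferating cells were grown as neurospheres, which are floating clusters of dividing cells. For each of these stages there were 3 wild-type (WT) H3K14ac libraries, and 1 library each of H3K14ac ChIP from Hbo1 null cells, of IgG (an antibody with no target) and of input (chromatin without immunoprecipitation). How the null allele was made, how long the cells had differentiated and the strain are not given in the labels. The study names 4 wild-type foetuses, and nothing ties a library to a foetus or culture, so the p-values below speak of the spread among these libraries alone, and that spread may be technical.

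Counts over gene bodies came to 12549913 to 17074249 in differentiating and 3992697 to 7611239 in proliferating WT libraries. The null libraries held 320601 (differentiating) and 64071 (proliferating), the IgG libraries 2771713 and 2526252, and the input libraries 12689734 and 11871306. Of 12 neural stem and progenitor markers, 10 were above input in their TSS windows by edgeR's quasi-likelihood test, among them Vim and Sox2. Of all 21557 windows tested, 11.6% were above input. DESeq2 called 3 of the 12 markers above input. Of 11 stem and progenitor markers tested against IgG, edgeR called 2 higher, against 5.13% of all windows, and DESeq2 0. Summed, these markers had 1.40 to 2.11 times input in differentiating and 2.88 to 3.63 times input in proliferating WT libraries, while 6 neuronal markers had 1.06 to 1.51 and 1.51 to 1.56 times input. Astrocyte markers (2 of 6 windows called above input) summed to 1.24 to 1.73 and 1.35 to 1.82 times input. Oligodendrocyte markers (1 of 6, near the share of all windows) summed to 1.42 to 1.61 and 1.64 to 1.87. IgG, in differentiating and then proliferating cells, was at 1.42 and 0.686 times input for the oligodendrocyte markers. It was at 0.796 and 1.40 for the stem and progenitor, 0.799 and 0.895 for the neuronal, and 0.720 and 1.02 for the astrocyte markers. The differentiating oligodendrocyte sum was thus not clearly above IgG. No window of the 4 microglial, 5 endothelial and 4 mesenchymal markers that could be tested was called by edgeR or DESeq2, and 0 had an unadjusted p under 0.05. Kat7 was not lower over its gene body in the null libraries. It had 34.3 CPM (counts per 1e6 gene body counts; 95% Poisson interval 17.1 to 61.4) in the differentiating and 62.4 (17.0 to 160) in the proliferating null library, against 26.9 to 37.9 CPM in the 6 WT libraries, and in the null libraries it rested on 11 and 4 counts. These values do not check the deletion, since a gene body count of ChIP DNA need not fall when a part of the gene is removed, and the null libraries are named here as they were labelled.

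Each member was read in the 1000 bases downstream of its start site (its TSS window), because the alpha and gamma gene bodies run to shared ends and hold each other's counts. A window held 1 to 36 counts in the WT libraries, apart from 1 window without a count (Pcdhga11 in proliferating WT replicate 2), and 10 to 33 in the input libraries. Levels are given as CPM, counts in the window per 1e6 gene body counts of the library. Members resemble each other in sequence and the treatment of reads that align to several places is not given in the sources used here, so the value of any 1 variable gene may hold reads of its neighbours.

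**Figure D1:**
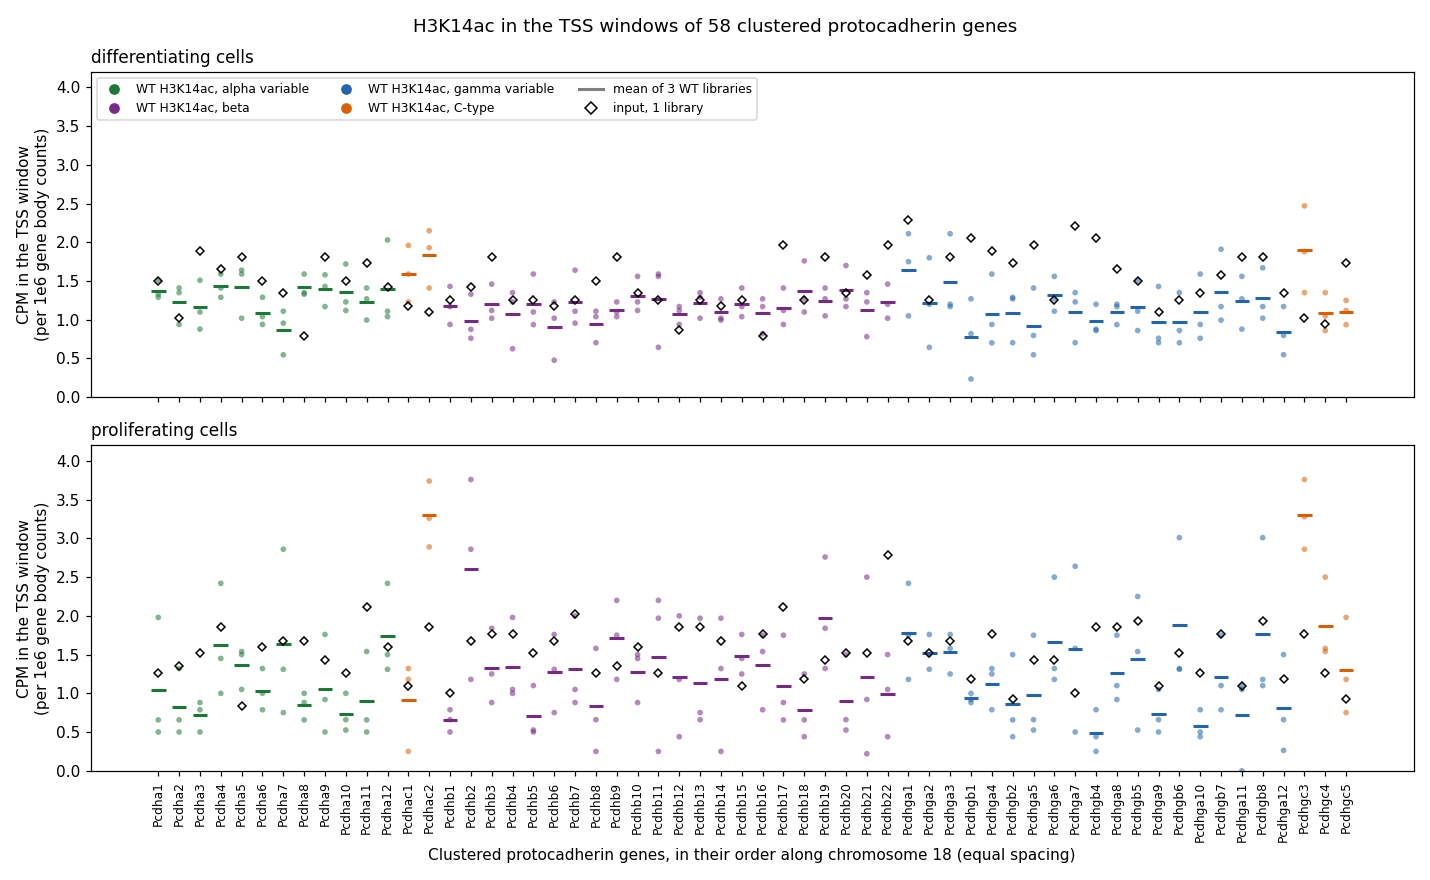
Counts per 1e6 gene body counts in the TSS window of each of the 58 clustered protocadherin genes, in their order along the chromosome, for differentiating cells (top) and proliferating cells (bottom). Dots are the 3 WT H3K14ac libraries, bars their mean, and diamonds the 1 input library of the same stage; Pcdhac2 and Pcdhgc3 stand above the other members in proliferating cells, with means of 3.30 CPM each.

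Most clustered protocadherin windows held no more counts in WT H3K14ac libraries than ordinary windows, and a pair of C-type windows, Pcdhac2 and Pcdhgc3, held the most. These levels are not corrected for background. In input the median member had 1.46 CPM (differentiating) and 1.52 CPM (proliferating), against 1.10 and 1.18 CPM for all windows. Neither gene of the pair passed against input or IgG, as given below. Over the 6 WT libraries the median member had 1.21 CPM, against 1.29 CPM for the median of all windows. Pcdhgc3 averaged 2.60 ± 0.893 CPM and Pcdhac2 2.56 ± 0.881 CPM (SD, n = 6), at percentiles 93.3 and 92.9 of all windows. The next was Pcdhb2 with 1.79 ± 1.22 CPM, at percentile 76.9, and the lowest was Pcdhgb4 with 0.736 ± 0.338 CPM, at percentile 11.1.

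Within the alpha variable genes, Pcdha12 was highest (1.57 ± 0.549 CPM) and Pcdha3 lowest (0.943 ± 0.340 CPM). The beta genes ran between Pcdhb2 and Pcdhb8 (0.890 ± 0.456 CPM), and the gamma variable genes between Pcdhga1 (1.71 ± 0.525 CPM) and Pcdhgb4. Class medians were close together, at 1.17 CPM for the alpha variable, 1.17 for the beta, 1.18 for the gamma variable and 1.48 for the C-type genes. With these SDs, which pool both stages and so hold the stage difference, no neighbours in the order of levels differed beyond their spread. Within differentiating WT libraries alone, Pcdhac2 (1.83 ± 0.382 CPM, SD, n = 3) lay above Pcdhb2 (0.989 ± 0.301 CPM) without overlap. In proliferating ones the 2 genes overlapped (3.30 ± 0.427 and 2.60 ± 1.31 CPM).

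Relative to input, the background that carries no selection for the mark, clustered protocadherin windows as a group were low. By edgeR's quasi-likelihood test of the 6 WT against the 2 input libraries, scaled by gene body totals, 0 of the 57 members tested were higher, against 11.6% of all 21557 windows, and 3 (5.26%) were lower, against 0.881%. At an unadjusted p under 0.05 there were 2 higher and 8 lower, against 5061 and 776 of the 21557 windows. DESeq2 called 0 higher and 2 lower. With TMM scaling over TSS windows 8 members were lower, against 659 of the 21557 windows. The log2 difference, WT minus input, was negative for 49 of 57, with a median of −0.29 over the members, against 0.25 over all windows and 0.41 over the other chromosome 18 windows. The 3 lower members were Pcdhgb4, Pcdhb22 and Pcdhgb1.

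Pcdhgb4, a gamma variable gene, had 1.20, 0.861 and 0.879 CPM in differentiating WT libraries, against 2.05 CPM in input. In proliferating WT libraries it had 0.440, 0.250 and 0.788 CPM, against 1.85 CPM in input. All 6 WT libraries lay below both inputs, with a log2 difference of −1.28 (SE 0.34, edgeR adjusted p = 0.00479). The IgG libraries were also below input there, at 0.722 CPM (differentiating) and 0.396 CPM (proliferating), from 2 and 1 counts.

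Pcdhb22, the last gene of the beta cluster, had 1.20, 1.02 and 1.46 CPM in differentiating WT libraries, against 1.97 CPM in input, and 0.440, 1.50 and 1.05 CPM in proliferating WT libraries, against 2.78 CPM in input. All 6 were again below both inputs (log2 −1.0, SE 0.32, edgeR adjusted p = 0.0205), and IgG had 1.80 CPM (differentiating) and 2.38 CPM (proliferating). Pcdhgb1 had 1.27, 0.235 and 0.820 CPM in differentiating WT libraries, against 2.05 CPM in input. In proliferating WT libraries it had 0.881, 1.00 and 0.920 CPM, against 1.18 CPM in input, so that the groups did not overlap within a stage but did across stages (log2 −1.01, SE 0.35, edgeR adjusted p = 0.0396).

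The count of 3 members below input rested on few counts and on the control library. Without the proliferating input library it was 0, without proliferating WT replicate 3 it was 1, without proliferating WT replicate 2 it was 5, without either of 2 differentiating WT libraries (replicates 1 and 3) it was 4, without differentiating WT replicate 2, proliferating WT replicate 1 or the differentiating input it was 2, and with TMM scaling over TSS windows (which set the median of all windows at −0.02) it was 8.

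The position of each library gave the same picture without a model. In differentiating cells, all 3 WT libraries lay below input at 27 of 58 members (46.6%, against 29.6% of 19283 windows with at least 10 input counts in each stage) and above it at 6 (10.3%, against 24.0%). In proliferating cells they lay below input at 21 members (36.2%, against 18.8%) and above it at 5 (8.62%, against 38.3%). The alpha variable genes gave 7 of 12 below in differentiating and 6 of 12 in proliferating cells, the beta genes 8 of 22 in each stage, and the gamma variable genes 11 and 7 of 19. Among C-type genes, 3 of 5 were above input in each stage.

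Against IgG the position of the windows differed between the stages. In differentiating cells all 3 WT libraries were above IgG at 26 of 58 members (44.8%, against 53.1% of all windows) and below it at 17 (29.3%, against 20.9%). In proliferating cells they were above IgG at 16 (27.6%, against 49.3%) and below it at 19 (32.8%, against 18.6%), with the alpha variable genes at 3 of 12 above and 6 of 12 below. By edgeR, 22 members held enough counts to be tested against IgG. Of these, 0 were called in either direction, against 5.13% of 13158 windows higher and 0.205% lower (DESeq2 also called 0). At an unadjusted p under 0.05 there was 1 higher and 1 lower, against 3158 and 98 of the 13158 windows. The median log2 difference, WT minus IgG, was −0.08 over these 22, against 0.67 over all windows tested. Those with the smallest p were Pcdhgc3 (log2 1.76, SE 0.66, adjusted p = 0.0826), Pcdhb9 (−0.99, SE 0.48, adjusted p = 0.172) and Pcdhga3 (1.43, SE 0.74, adjusted p = 0.206). Without the differentiating IgG library they were at 1.05, −0.29 and 0.95, and with TMM scaling at 1.11, −1.59 and 0.85. A window had a median of 3.00 counts in either IgG library, which limits the precision of each of these differences.

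Summed by class, the C-type windows lay above the variable ones relative to input, and Pcdhac2 and Pcdhgc3 were the highest of them. The sum of this pair was at log2 0.79 ± 0.28 over input in differentiating and 0.86 ± 0.09 in proliferating cells (SD, n = 3). The pair was not a class set beforehand and has the highest WT levels of the members in these same libraries. Its high sum is therefore not a separate result. The means of Pcdhac1, Pcdhgc4 and Pcdhgc5 ran from 0.635 to 1.35 and from 0.838 to 1.48 times input. In differentiating cells the C-type sum was 1.45, 1.23 and 1.09 times input in the 3 WT libraries, with a mean log2 ratio of 0.32 ± 0.21 (SD, n = 3). In proliferating cells it was 1.66, 1.52 and 1.46 times input (log2 0.63 ± 0.09). All windows together were at log2 0.09 ± 0.09 in differentiating and 0.51 ± 0.06 in proliferating cells, so in each stage the C-type sum exceeded the total of all windows by little more than its own SD.

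The alpha variable sum was 0.891, 0.832 and 0.844 times input in differentiating WT libraries (log2 −0.23 ± 0.05, SD, n = 3). In proliferating WT libraries it was 1.08, 0.564 and 0.592 times input (log2 −0.49 ± 0.52), where replicate 1 alone was not below input. Without that library the mean was −0.79. The beta sum was below input in all 6 libraries, at log2 −0.26 ± 0.06 in differentiating and −0.36 ± 0.13 in proliferating cells. The gamma variable sum was also below input in all 6, at −0.57 ± 0.22 and −0.32 ± 0.29.

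**Figure D2:**
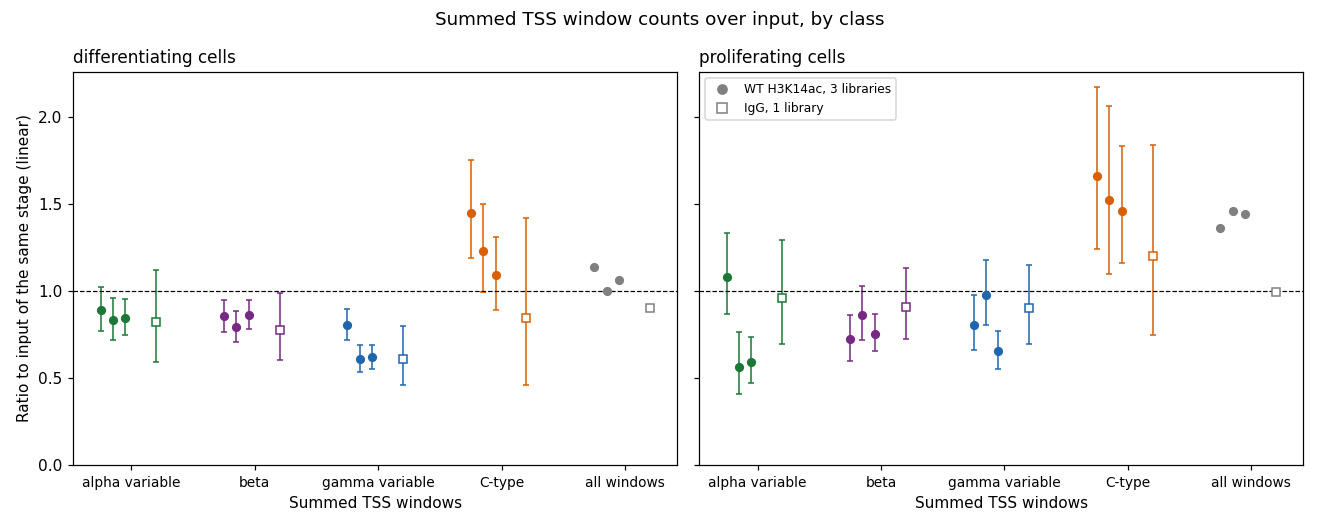
Ratio of summed TSS window counts to the input of the same stage (linear axis, each as a share of gene body counts) for 4 classes of clustered protocadherin genes and for all windows, in differentiating (left) and proliferating (right) cells. Filled circles are the 3 WT H3K14ac libraries and open squares the IgG library, with 95% Poisson intervals of the library's own count; C-type sums lie above 1 in all 6 WT libraries (1.09 to 1.66) and the beta and gamma variable sums below it.

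Within each WT library the C-type ratio was above that of every variable class. The log2 difference, C-type minus alpha variable, ran from 0.36 to 1.43, C-type minus beta from 0.33 to 1.20, and C-type minus gamma variable from 0.64 to 1.16, positive in 6 of 6 libraries each. These libraries share 1 input per stage, with 76 (differentiating) and 82 (proliferating) C-type counts, whose counting error enters every value. IgG shared this order at a smaller size. There the same differences were 0.03, 0.12 and 0.47 in differentiating and 0.33, 0.41 and 0.42 in proliferating cells. Set against IgG in place of input, the variable sums were close to IgG in differentiating cells (log2 0.06 ± 0.05 for alpha, 0.11 ± 0.06 for beta, 0.14 ± 0.22 for gamma, SD, n = 3) and the C-type sum was at 0.56 ± 0.21. In proliferating cells the values were −0.43 ± 0.52, −0.23 ± 0.13 and −0.17 ± 0.29, and 0.36 ± 0.09 for the C-type sum. The C-type sum over IgG was that of the gamma genes, at 1.16 ± 0.28 in differentiating and 0.86 ± 0.11 in proliferating cells, while the alpha C-type sum was at 0.07 ± 0.12 and −0.19 ± 0.27. Whether the sum was low thus depended on which control library was used, in differentiating cells for every variable class.

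The 5 C-type windows ran from log2 −0.24 to 0.88 relative to input, and differences between them were not tested. Pcdhgc3, the gamma C-type gene that shapes the dendrites of cortical neurons in mice, had 2.47, 1.88 and 1.35 CPM in differentiating WT libraries, against 1.02 CPM in input. In proliferating WT libraries it had 2.86, 3.76 and 3.28 CPM, against 1.77 CPM in input, so that every WT library was above the input of its stage. The log2 difference from input was 0.88 (SE 0.38), which did not pass (edgeR adjusted p = 0.107). IgG had 0 counts there in differentiating cells, which at its depth bounds the level only loosely, and 4 counts (1.58 CPM) in proliferating cells.

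Pcdhac2 had 2.15, 1.41 and 1.93 CPM in differentiating WT libraries, against 1.10 CPM in input. In proliferating WT libraries it had 3.74, 3.26 and 2.89 CPM, against 1.85 CPM in input, again with every WT library above the input of its stage. The log2 difference was 0.77 (SE 0.37, edgeR adjusted p = 0.160), and against IgG it was 0.56 (SE 0.53, adjusted p = 0.518), where IgG itself had 1.08 CPM (differentiating) and 2.38 CPM (proliferating).

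The other C-type windows stayed nearer to input. Pcdhgc4 averaged 1.09 ± 0.249 CPM in differentiating WT libraries (SD, n = 3), against 0.946 CPM in input, and 1.87 ± 0.546 CPM in proliferating WT libraries, against 1.26 CPM in input (log2 0.36, SE 0.35, edgeR adjusted p = 0.555). Pcdhac1, whose protein needs other protocadherins to reach the cell surface, averaged 1.59 ± 0.363 CPM in differentiating WT libraries, against 1.18 CPM in input, and 0.918 ± 0.582 CPM in proliferating ones, against 1.10 CPM (log2 0.19, SE 0.35, edgeR adjusted p = 0.777). Pcdhgc5 averaged 1.10 ± 0.158 CPM in differentiating WT libraries, against 1.73 CPM in input, and 1.30 ± 0.624 CPM in proliferating ones, against 0.927 CPM (log2 −0.24, SE 0.34, edgeR adjusted p = 0.709).

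**Figure D3:**
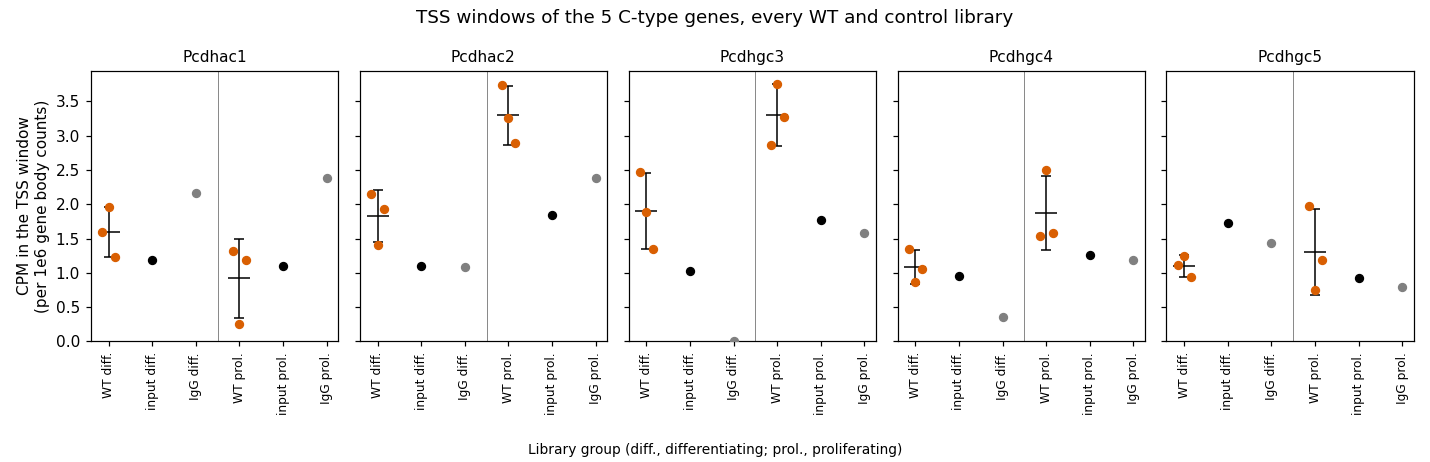
Counts per 1e6 gene body counts in the TSS windows of the 5 C-type genes, in every WT, input and IgG library. Orange dots are single WT H3K14ac libraries with their mean and SD (black bars, n = 3), black dots input and grey dots IgG (1 library each per stage); at Pcdhac2 and Pcdhgc3 all WT dots lie above the input dot of their stage.

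On a scale set by all TSS windows, WT counts at part of the alpha and beta genes were higher in differentiating than in proliferating cells. By edgeR with TMM scaling (a normalization that assumes most windows do not change), 5 of the 51 members tested were higher in differentiating cells (9.80%, against 2.03% of 19477 windows) and 0 were lower (against 4.57%). They were the alpha variable genes Pcdha10 and Pcdha8, the beta genes Pcdhb18 and Pcdhb20, and the C-type gene Pcdhac1. None of the 5 was called above input or, where tested, above IgG. In differentiating cells their mean WT levels were 0.905 (Pcdha10), 1.81 (Pcdha8), 1.09 (Pcdhb18), 1.03 (Pcdhb20) and 1.35 (Pcdhac1) times input. In proliferating cells they were, in the same order, 0.577, 0.502, 0.664, 0.591 and 0.838 times input. At an unadjusted p under 0.05 there were 15 higher and 1 lower, against 1859 and 2582 of the 19477 windows. DESeq2 called 0 members. The median log2 difference, differentiating minus proliferating, was 0.42 over the members, against 0.02 over all windows tested. By class it was 0.93 for the alpha variable (11 of 12 positive), 0.37 for the beta (18 of 21), 0.38 for the gamma variable (11 of 13) and −0.23 for the C-type genes (2 of 5).

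The values of the 5 members are given per 1e6 TSS window counts after TMM, the scale of that test. The test picked these members on the same values, so a lack of overlap is not a separate result. Pcdha10 had 29.7, 54.1 and 37.1 in differentiating WT libraries, against 13.8, 20.9 and 10.8 in proliferating ones, which did not overlap (log2 1.46, SE 0.45, adjusted p = 0.0299). Pcdha8 had 42.4, 41.8 and 40.6 in differentiating and 18.4, 20.9 and 13.5 in proliferating libraries (log2 1.30, SE 0.42, adjusted p = 0.0410). Each of these proliferating values stood on 3 to 5 counts.

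Of the beta genes, Pcdhb18 had 33.9, 34.4 and 53.0 in differentiating libraries, against 9.21, 26.1 and 13.5 in proliferating ones (log2 1.40, SE 0.43, adjusted p = 0.0299). Pcdhb20 had 33.9, 36.9 and 51.2 in differentiating libraries, against 13.8, 31.3 and 10.8 (log2 1.29, SE 0.42, adjusted p = 0.0433). Neither pair of groups overlapped, although proliferating replicate 2 came close. Pcdhac1 had 42.4, 61.4 and 37.1 in differentiating libraries, against 27.6, 5.22 and 24.3 in proliferating ones (log2 1.15, SE 0.39, adjusted p = 0.0483), where replicate 2 held 1 count.

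These 5 calls depended on the scale and on single libraries. Between stages, the TSS windows together took 3.24% to 3.68% of gene body counts in differentiating and 4.56% to 4.90% in proliferating WT libraries. Scaled by gene body totals, the median of all windows moved to −0.47 and that of the members to −0.08; 0 members were then higher (against 0.329% of windows) and 3 were lower (against 25.7%). The 58 windows together had 70.1 ± 5.58 CPM in differentiating and 74.9 ± 7.57 CPM in proliferating WT libraries (SD, n = 3 each), a difference within their spread, whereas all windows had 34500 ± 2210 and 47700 ± 1840 CPM.

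The 3 members lower with gene body totals were Pcdhac2 (log2 −0.82, edgeR adjusted p = 0.0410), Pcdhgc3 (−0.82, adjusted p = 0.0403) and Pcdhb2 (−1.25, adjusted p = 0.00354). On the TMM scale they were at −0.31, −0.33 and −0.75 and did not pass. Pcdhb2 had 0.877, 1.33 and 0.761 CPM in differentiating libraries, against 2.86, 3.76 and 1.18 in proliferating ones, which overlapped at the lowest proliferating value. Relative to the median of all windows, the members' median lay 0.39 higher, the alpha variable median 0.91 higher and the C-type median 0.25 lower, and these distances are the same on both scales by construction, since new library sizes shift all windows alike.

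Leaving out 1 library gave 4 members higher without differentiating replicate 1, 3 without proliferating replicate 2, 1 without differentiating replicate 2 or 3 or proliferating replicate 1, and 0 without proliferating replicate 3. Over the 11 alternatives, Pcdhb18 was called in 5, Pcdha10 in 4, Pcdhb20 and Pcdhac1 in 2 and Pcdha8 in 0.

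**Figure D4:**
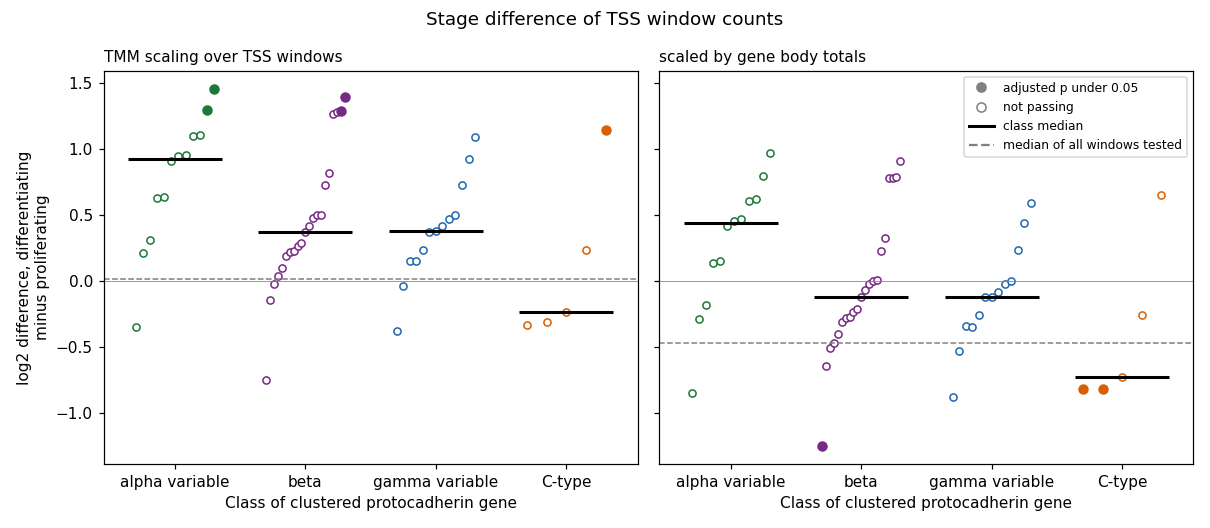
Log2 difference of TSS window counts, differentiating minus proliferating, for each clustered protocadherin gene tested, by class, with TMM scaling (left) and with gene body totals as library sizes (right). Filled points had an edgeR adjusted p under 0.05, black lines are class medians and the dashed line is the median of all windows tested; the alpha variable median lies above the dashed line and the C-type median below it, and the change of library sizes shifts all points alike.

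Set against the input of each stage, no stage difference was called. The contrast of the ratio to input between stages called 0 of 57 members by edgeR, against 0.0278% of all windows, all lower. At an unadjusted p under 0.05 there was 1 higher and 1 lower, against 196 and 2051 of the 21557 windows. The median log2 difference was 0.04 over the members, against −0.37 over all windows tested. With so few windows called anywhere, the lack of calls does not show that the stages were alike. The smallest p were those of Pcdha8 (log2 1.89, SE 0.73, adjusted p = 0.320), Pcdhga7 (−1.65, SE 0.65, adjusted p = 0.325) and Pcdhgc5 (−1.15, SE 0.70, adjusted p = 0.567). Pcdha8 shows how the input library entered: its input had 0.788 CPM in differentiating and 1.68 CPM in proliferating cells, from 10 and 20 counts.

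Gene bodies gave more counts per member but shared them. No member was called between stages over its gene body by edgeR or DESeq2 (0 of 58, against 0.163% of 24564 genes). At an unadjusted p under 0.05 there were 5 higher and 3 lower, against 1186 and 1570 of the 24564 genes. The smallest p were those of Pcdhb5 (log2 0.79, SE 0.20, adjusted p = 0.172), Pcdhgc3 (−0.30, SE 0.09, adjusted p = 0.252) and Pcdhb2 (−0.83, SE 0.25, adjusted p = 0.268). Pcdhb5 had 4.14, 4.15 and 3.92 CPM over its gene body in differentiating libraries, against 2.20, 2.25 and 2.63 CPM in proliferating ones. The direction at Pcdhb2 and Pcdhgc3 was that of their TSS windows, which the gene bodies contain.

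Over gene bodies the alpha cluster lay slightly above input, and the gamma cluster slightly below it, as gene bodies in general did. The median log2 difference, WT minus input, was 0.20 over the alpha variable and −0.16 over the gamma variable genes, against −0.14 over all genes tested. By edgeR 10 members were higher than input (17.2%, against 8.43% of 24848 genes), namely Pcdha4 to Pcdha12 and Pcdhac1. Another 10 were lower (17.2%, against 21.3%), namely Pcdhb22 and 9 gamma variable genes. The alpha differences were small, from 0.20 at Pcdha4 (SE 0.07, adjusted p = 0.0436) to 0.25 at Pcdha12 (SE 0.07, adjusted p = 0.0240), and the gamma ones ran between −0.17 and −0.20. Of these, only Pcdhb22 (−0.58, SE 0.20, adjusted p = 0.0464) had a gene body that overlaps no other member; the other calls share most of their counts and are not separate results. The 10 lower calls rest on the scale, and all 20 on the libraries: with TMM scaling 13 members were higher, Pcdha4 to Pcdha12 and Pcdhac1 among them, and 0 lower, within either stage 0 were called, and without either input library 0 were called. Beside the TMM counts of members stand 2908 higher and 2743 lower of all 24848 genes. Without 1 WT library the members higher ran from 0 (without differentiating replicate 2) to 13 (without proliferating replicate 1). Those lower ran from 0 (without proliferating replicate 3) to 13 (without proliferating replicate 1).

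IgG moved alike over these spans. The alpha span was at log2 0.31 in IgG over input in differentiating and 0.17 in proliferating cells, against 0.22 ± 0.06 and 0.12 ± 0.10 in WT (SD, n = 3). The gamma span was at −0.21 and −0.08 in IgG, against −0.22 ± 0.02 and −0.16 ± 0.08 in WT. Against IgG, the WT libraries were thus at −0.08 ± 0.06 and −0.05 ± 0.10 for alpha, and at −0.01 ± 0.02 and −0.08 ± 0.08 for gamma.

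To place the signal without overlap, counts of nested gene bodies were subtracted, which left segments from one start site to the next. In the alpha cluster, 9 of 12 variable segments were above input in differentiating cells (median log2 0.18, −0.07 to 0.49) and 3 of 12 in proliferating cells (median −0.11). In IgG 10 of 12 (median 0.20) and 9 of 12 (median 0.07) were above input. The segment that starts at Pcdhac1 and ends at Pcdhac2, 53833 bases long, was at 0.45 ± 0.15 in differentiating and 0.39 ± 0.27 in proliferating WT libraries (SD, n = 3), but IgG was higher there, at 0.82 and 0.54. The segment from Pcdhac2 to the end of the cluster was at 0.03 ± 0.07 in WT and −0.31 in IgG in differentiating cells.

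In the gamma cluster, 17 of 19 variable segments were below input in differentiating cells (median log2 −0.42) and 18 of 19 in proliferating cells (median −0.27). The IgG medians were −0.37 and −0.05, with 4 and 7 of 19 above input. The segment that starts at Pcdhgc3, 8669 bases long, was at 0.53 ± 0.11 in proliferating WT libraries, the highest of the gamma segments, with IgG at 0.45. In differentiating cells it was at 0.09 ± 0.12, with IgG at −0.23.

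**Figure D5:**
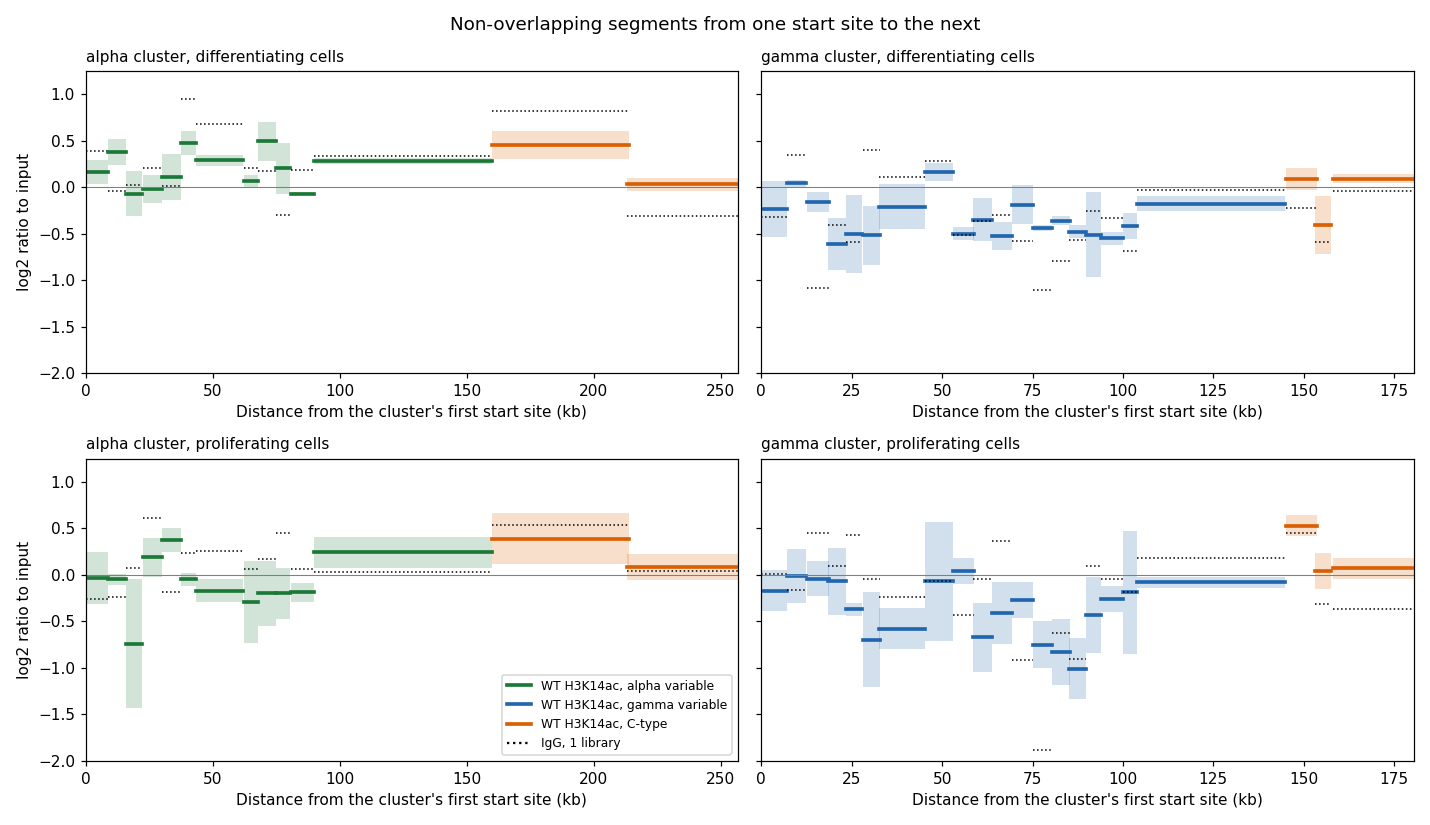
Log2 ratio to input of non-overlapping segments between successive start sites of the alpha (left) and gamma (right) clusters, by distance from the first start site in kb, in differentiating (top) and proliferating (bottom) cells. Coloured lines are means of 3 WT libraries with SD as shading, and dotted lines the 1 IgG library; the dotted lines lie on both sides of the WT means in both clusters, and gamma variable segments lie mostly below 0.

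Relative to input, the variable start sites did not stand out from the DNA around them. Counts per kb in the windows of the alpha variable genes, divided by those in the rest of their segments and then by the same ratio in input, came to 0.707 ± 0.0536 in differentiating and 0.714 ± 0.367 in proliferating WT libraries (SD, n = 3). The beta genes were at 0.800 ± 0.0617 and 0.777 ± 0.0805, and the gamma variable genes at 0.795 ± 0.165 and 0.971 ± 0.161. The C-type windows were above 1 on average, at 1.29 ± 0.196 and 1.25 ± 0.337 in the alpha cluster and 1.09 ± 0.217 and 1.51 ± 0.147 in the gamma cluster. In IgG the alpha variable ratio was 0.634 in differentiating and 0.880 in proliferating cells, the beta ratio 0.799 and 0.969, and the gamma variable ratio 0.665 and 0.925. The IgG ratio at the alpha C-type windows was 1.15 and 1.35, within 1 SD of the WT means, and at the gamma C-type windows 0.517 and 0.988.

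Hbo1 null libraries were too shallow to show a difference for single members. They held 12 counts over the 58 windows in differentiating and 5 in proliferating cells, with 47 and 53 windows at 0. The differentiating sum was 0.433 times input (95% Poisson interval 0.224 to 0.756), against 0.764 to 0.884 in the WT libraries, and the proliferating sum 0.877 times input (0.285 to 2.05), against 0.744 to 0.893. All windows together were at 0.907 times input in the differentiating and 0.843 in the proliferating null library, against 1.00 to 1.14 and 1.36 to 1.46 in WT. Over the gene body span of the alpha cluster the proliferating null library was higher, at 1.86 times input (1.19 to 2.77, from 24 counts), against 1.02 to 1.17 in WT, and the differentiating one was at 1.20 (0.950 to 1.49), against 1.12 to 1.20. C-type windows had 0 counts in both null libraries, which allows up to 1.92 and 8.34 times input and so includes the WT values. Intervals cover counting error only. The null libraries were not tested against WT.

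Known regulators of protocadherin promoters were above input at part of their own windows. Of 22 tested, 10 were above input by edgeR and 0 below (median log2 0.96), against 11.6% of all windows, including the cohesin subunit Stag2 (1.98, SE 0.42, adjusted p = 0.000609), the transcription factor Zfp143 (1.95, SE 0.43, adjusted p = 0.000902), the DNA methyltransferase Dnmt3a (1.78, SE 0.40, adjusted p = 0.00117) and Stag1 (1.68, SE 0.41, adjusted p = 0.00265). With TMM scaling 6 were called, and by DESeq2 2. Fewer regulators stood above IgG: 3 of 18 by edgeR, against 5.13% of all windows, and 0 with TMM scaling or by DESeq2. Between stages 6 of 21 were lower in differentiating cells and 0 higher (against 4.57% and 2.03% of all windows), at a median of −0.77: the repressor Rest (−1.30, SE 0.28, adjusted p = 0.00124), Ctcf (−0.94, SE 0.27, adjusted p = 0.0184), Stag1 (−0.99, SE 0.28, adjusted p = 0.0185) and Wapl, which releases cohesin (−0.93, SE 0.29, adjusted p = 0.0293), with Pds5a and Rad21. DESeq2 called 1 of them. With gene body totals 16 were lower (median −1.27), against 25.7% of all windows. The contrast of the ratio to input between stages called 0 of 22 regulators, at a median of −0.93 against −0.37 over all windows. Of the 12 neural stem and progenitor markers, 2 were also lower between stages (median −0.56), and 10 with gene body totals; their part in the result was not tested.

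Among genes for proteins that bind or cleave protocadherins, 8 of 14 were above input and 0 below (median log2 1.18), against 11.6% and 0.881% of all windows, with 7 under TMM scaling and 2 by DESeq2. They included the WAVE complex subunits Wasf1 (1.67, SE 0.41, edgeR adjusted p = 0.00270) and Abi2 (1.61, SE 0.41, adjusted p = 0.00323), the kinase Fyn (1.61, SE 0.41, adjusted p = 0.00367) and the protease Adam10 (1.40, SE 0.39, adjusted p = 0.00828). Between stages 2 of 14 were lower in differentiating cells (against 4.57% of all windows), Nckap1 (−0.82, SE 0.27, adjusted p = 0.0426) and Abi2 (−0.85, SE 0.29, adjusted p = 0.050 when rounded), and 0 by DESeq2. With gene body totals 10 were lower, against 25.7% of all windows. Only 1 of 14 was above IgG by edgeR, against 5.13% of all windows, and 0 with TMM scaling or by DESeq2.

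Of 12 protocadherins outside the clusters whose windows were tested, 0 were called against input by edgeR or DESeq2 (median log2 −0.12), against 11.6% of all windows higher and 0.881% lower, and 1 had an unadjusted p under 0.05. Their smallest p was that of Pcdh7 (0.89, SE 0.37, edgeR adjusted p = 0.0883). Over gene bodies 5 of 12 were above input (against 8.43% of all genes), Pcdh7, Pcdh9, Pcdh10, Pcdh15 and Pcdh17, at log2 0.41 to 0.81, and 1, Pcdh1, was below (−0.41, SE 0.11, adjusted p = 0.0199, against 21.3% of all genes). Between stages 0 of 11 windows were called by edgeR or DESeq2. At an unadjusted p under 0.05 there were 2 higher and 1 lower, against 1859 and 2582 of 19477 windows. With gene body totals as library sizes 2 were lower (against 25.7% of all windows), at a median of −0.37.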

How the data were processed

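H3K14ac ChIP-seq of mouse neural stem and progenitor cells gave 12 libraries. The authors deposited unnormalised read counts for each gene, in TSS windows of 1000 bases and over gene bodies; per the submitters' processing notes, the authors used bcl2fastq and featureCounts on mm10. The aligner, versions and treatment of multi-mapping reads are not given in the sources used here. The 24 files per sample equalled the columns of the series tables. Symbols came from RefSeq (GRCm38.p6) for 25204 of 27095 gene IDs; 1891 had none. Promoter sequences were not analysed here.

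Tests used edgeR 4.0.16 (R 4.3.3; quasi-likelihood, two-sided, prior count 0.125) over all features with a mean count of at least 10 in the libraries of the fit, with Benjamini-Hochberg adjustment at 0.05. Stage fits took the 6 WT libraries with TMM. Fits against input or IgG took 6 WT and 2 control libraries, with stage as a covariate and library sizes set to the gene body totals, so that 1 control library per stage stands for its group and is assumed to vary like the WT ones. Comparisons with input, with IgG and between stages share the WT libraries. CPM are counts per 1e6 gene body counts, except where per TSS counts. Class sums are descriptions with exact 95% Poisson intervals, also where the count is 0. Settings were tested on simulated counts. Alternatives were DESeq2 1.42.0, the other scaling, other count filters, a replicate block, single stages and leaving out each library.

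The members and gene lists were chosen with earlier results of these data known. Named in full are the C-type genes, the highest and lowest member of each variable class, the members called (up to 10 per comparison by adjusted p, or the 3 with the smallest p), and up to 4 genes per list; further genes were named after their values were seen.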

Additional observations from a re-analysis of the deposited data

How the results depend on the processing

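Whether the replicate numbers pair the libraries was not settled. In TSS windows, counting noise pulls correlations of deviations from the group mean towards 0 with or without pairing. Over gene bodies, same-numbered libraries correlated at −0.122, 0.199 and −0.193, and other pairs from −0.296 to 0.274. Deviations of same-numbered libraries correlated at −0.012, −0.033 and 0.004 in TSS windows, and not every library correlated best with its own number; with the replicate number as a block, edgeR called 787 windows between stages (1285 without it) with 2 members higher, 280 windows against input (2697) with 0 members lower, and 3318 gene bodies against input (7398) with 0 members higher and 4 lower.

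Counts of calls moved with other settings, and the cause was not tested. DESeq2 called 96 windows and 0 members higher between stages, 182 gene bodies between stages, 546 windows against input, 4741 gene bodies against input with 0 members lower, and 42 windows against IgG. With gene body totals the stage fit called 5060 windows, with 0 members higher and 3 lower. A mean count of at least 5 gave 2 members higher, and no filter 0. TMM gave 8 members below input in windows, 0 below over gene bodies, 53 windows against IgG and 0 in the contrast of ratios, which also had 0 without a filter. Within differentiating libraries, 19 windows and 479 gene bodies were called against input and 3 windows against IgG; within proliferating libraries 2304 gene bodies; members then numbered 0 lower in differentiating windows and 0 higher and 0 lower over gene bodies in each stage. Leaving out 1 library gave 331 to 1256 windows and 0 to 4 members higher between stages, 3 to 66 gene bodies between stages, 25 to 3990 windows and 0 to 5 members below input, 0 to 10231 gene bodies with 0 to 13 members higher and 0 to 13 lower than input, 5 to 1035 windows against IgG, and 0 to 65 in the contrast of ratios.

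Class sums taken as the median over members were −0.28 (alpha variable) and −0.10 (beta) in differentiating cells. With IgG in place of input they were 0.06 (alpha variable), 0.11 (beta), 0.14 (gamma variable) and 0.56 (C-type) in differentiating, and −0.23 (beta) and 0.36 (C-type) in proliferating cells. With gene body totals 20 of 51 members were positive between stages, against 42 with TMM. Differences of C-type genes that did not pass also changed sign, with ranges over leaving out 1 library beside them. Between stages Pcdhgc5 was at −0.26 with gene body totals, and Pcdhac1 over its gene body at −0.01 without proliferating replicate 1. Against input Pcdhac1 was at −0.08 (DESeq2), −0.03 (TMM) and −0.15 (proliferating alone), with −0.15 (without the differentiating input) to 0.40 over libraries left out, and Pcdhgc5 at 0.01 (replicate block) and 0.49 (proliferating alone), with −0.67 to 0.49 (without the differentiating input). Against IgG Pcdhac2 was at −0.09 (DESeq2) and −0.07 (TMM). In the contrast of ratios, TMM put Pcdhac2 at 0.33, Pcdhgc3 at 0.36 and Pcdhgc4 at 0.09; leaving out 1 library gave −0.19 to 0.07 for Pcdhac2 and −0.27 to 0.19 for Pcdhgc3. Depth limits single members: their median count was 5 to 8 in proliferating WT and 3 in IgG windows.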

Other observations

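Genes beside the clusters on chromosome 18 had few calls in their TSS windows, and differences among these genes were not tested. Of 18 neighbours tested in their TSS windows, 2 were above input by edgeR, near the share of all windows (11.6%). These were Ndfip1 (log2 1.75, SE 0.42, adjusted p = 0.00212) and Diaph1 (1.06, SE 0.39, adjusted p = 0.0473). Slc25a2, a single-exon gene that lies between the beta and gamma clusters, was the 1 below input (−1.10, SE 0.36, edgeR adjusted p = 0.0290), against 0.881% of all windows. The median over the neighbours was 0.40, against −0.29 over the clustered protocadherins. With TMM scaling 1 was above and 1 below, and DESeq2 called 1 above. Between stages Ndfip1 alone of 17 was called, lower in differentiating cells (−0.96, SE 0.27, edgeR adjusted p = 0.0152), near the share of all windows called lower (4.57%). With gene body totals 6 of 17 were lower (median −0.74), against 25.7% of all windows. Over gene bodies 8 of 21 neighbours were below input and 0 above (against 21.3% and 8.43% of all genes), among them Ik (−0.59, SE 0.09, adjusted p = 0.00127) and Hars (−0.57, SE 0.11, adjusted p = 0.00348).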
